A study of Homo sapiens with 36 samples.

Results

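The regions described here are PAR-CLIP clusters whose midpoint lay in the 5′ UTR of a protein-coding gene, taken from 18 lists of clusters for the RNA polymerase II-associated proteins SCAF4 and SCAF8. Each cluster was placed on its own strand in 1 isoform of each GENCODE 44 gene, that with the most exonic sequence (GRCh38). Of 278185 clusters in all 18 lists, 6250 (2.25%) met this rule, of which 4875 were in SCAF4 or SCAF8 IP lists, 305 in control IP lists and 1070 in input lists. They lay in the 5′ UTRs of 1633 genes, out of 16564 genes whose isoform had a 5′ UTR. In PAR-CLIP, cells incorporate 4-thiouridine into new RNA, ultraviolet light joins the labelled RNA to the proteins that touch it, and reads that carry the resulting base changes are grouped into clusters.

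The cells were HEK293 Flp-In T-REx, a human embryonic kidney line that accepts a transgene at a fixed site. Lines with doxycycline-inducible FLAG-SCAF4 or FLAG-SCAF8 (induced with 100 ng/mL per the labels) were compared with the parental line, which has no FLAG protein. All groups received 100 µM 4-thiouridine overnight, a further 500 µM for 2 h, and 2000 J/m2 of ultraviolet light. The IP used the FLAG tag, and the input was the extract of the same culture before IP. The 6 groups were therefore SCAF4 IP, SCAF8 IP and control IP (parental line), and the input of each line, with 3 lists per group. Each list merged a soluble and a chromatin library (36 libraries in all), so that the fractions cannot be told apart. The bait was a tagged protein from an inducible transgene, and its level was not measured in these data.

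The 5′ UTR is the stretch of an mRNA between the cap and the start codon. It is the first RNA to leave the polymerase, is often rich in G and C, and can hold upstream reading frames that regulate translation of the main frame. When the 5′ UTR spans several exons, its introns are the first to be transcribed. SCAF4 and SCAF8 carry a domain that binds the C-terminal domain of RNA polymerase II and an RNA recognition motif, and are known for preventing the use of early polyadenylation sites.

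The following 30 nt stretches of GRCh38 show the 5′ UTR sequence that most lists had in common at regions the results below turn on. The first 4 were in all 6 SCAF IP lists and in no control IP or input list. The last 4 belong to genes known for upstream reading frames or structured 5′ UTRs, and each was in 5 SCAF IP lists and no control IP or input list. They lie at chr12:389198-389227 (minus strand) for KDM5A, chr17:59106509-59106538 (minus) for TRIM37, chr10:101818270-101818299 (minus) for OGA, and chr11:67119905-67119934 (plus) for KDM2A. The others lie at chr22:39521152-39521181 (plus) for ATF4, chr22:39504330-39504359 (plus) for MIEF1, chr5:140567048-140567077 (plus) for SLC35A4, and chr7:92833614-92833643 (minus) for CDK6. Capitals mark CGG or CGA, a motif that the study describes for these proteins.
KDM5A: ttctgtgttgaaCGGttcttgtccgCGAag
TRIM37: CGAcctCGGgcCGGcgcctaagaggtcaga
OGA: aaCGAgaggtcacagcctcgctctccgctt
KDM2A: cccttttcctggtcgctctgaccctctctg
ATF4: ggCGGcCGGtggaagaatcccctggtctcc
MIEF1: tccatccgccgtgaattcCGAaaaaatcag
SLC35A4: cagtattctctctggcaatgttccaCGGct
CDK6: cgtgtctgtgttgaggacttcgcttCGAgg
The number of matches ran from 0 in KDM2A to 3 in TRIM37. CGG or CGA on the transcript strand was present in 50.8% of the 144675 stretches of 30 nt in all annotated 5′ UTR exons. It was present in 57.4% of the 1919 SCAF IP regions with a full 30 nt core. Among them it was present in 52.7% of the 273 in all 6 SCAF IP lists, and in 51.7% of the 470 also in an input list. The stretches above are examples and not a sample of these regions.

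The share of clusters in 5′ UTRs was higher in SCAF4 and SCAF8 IP than in their inputs, and control IP was also above its own input. In SCAF4 IP, 3.02, 2.52 and 2.58% of clusters were in 5′ UTRs in replicates 1, 2 and 3 (574, 1369 and 876 clusters). In SCAF8 IP the shares were 2.27, 2.63 and 2.42% (572, 481 and 1003 clusters). The 6 lists overlapped between the proteins, and the means of 2.71% for SCAF4 and 2.44% for SCAF8 did not differ beyond the spread (two-sided exact permutation test, p = 0.3, smallest possible p = 0.1, n = 3 each).

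Inputs of the SCAF4 line held 1.82, 1.68 and 1.71%, and those of the SCAF8 line 1.06, 1.78 and 1.84%. Every SCAF IP list was above every one of these inputs. The mean was 2.57% ± 0.255 in SCAF IP and 1.65% ± 0.294 in own input (SD, n = 6 lists each, exact permutation p = 0.00216, the smallest possible, adjusted p = 0.0048 over 11 results). Binomial intervals show the counting error of single lists: the highest input, SCAF8 input replicate 3, had a 95% exact interval of 1.58 to 2.14%, and the lowest SCAF IP list one of 2.09 to 2.46%.

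Control IP held 2.34, 2.16 and 1.79%, on 226, 50 and 29 clusters, and its lists overlapped those of SCAF8 IP. Parental input held 1.10, 1.05 and 1.12%, the lowest of the inputs together with SCAF8 input replicate 1. The difference between SCAF IP and control IP was 0.47 percentage points (exact permutation p = 0.0357 with 6 and 3 lists, smallest possible 0.0119), and its adjusted p was 0.196 over the 11 measures compared with control IP. Control IP exceeded parental input by 1.01 points, against 0.92 points for SCAF IP over own input, and these gains did not differ beyond the spread of pairs (exact permutation p = 0.667, n = 6 and 3). A list of control IP held 1621 to 9638 clusters in all, against 18287 to 54404 in SCAF IP and 4567 to 12493 in the inputs.

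**Figure D1:**
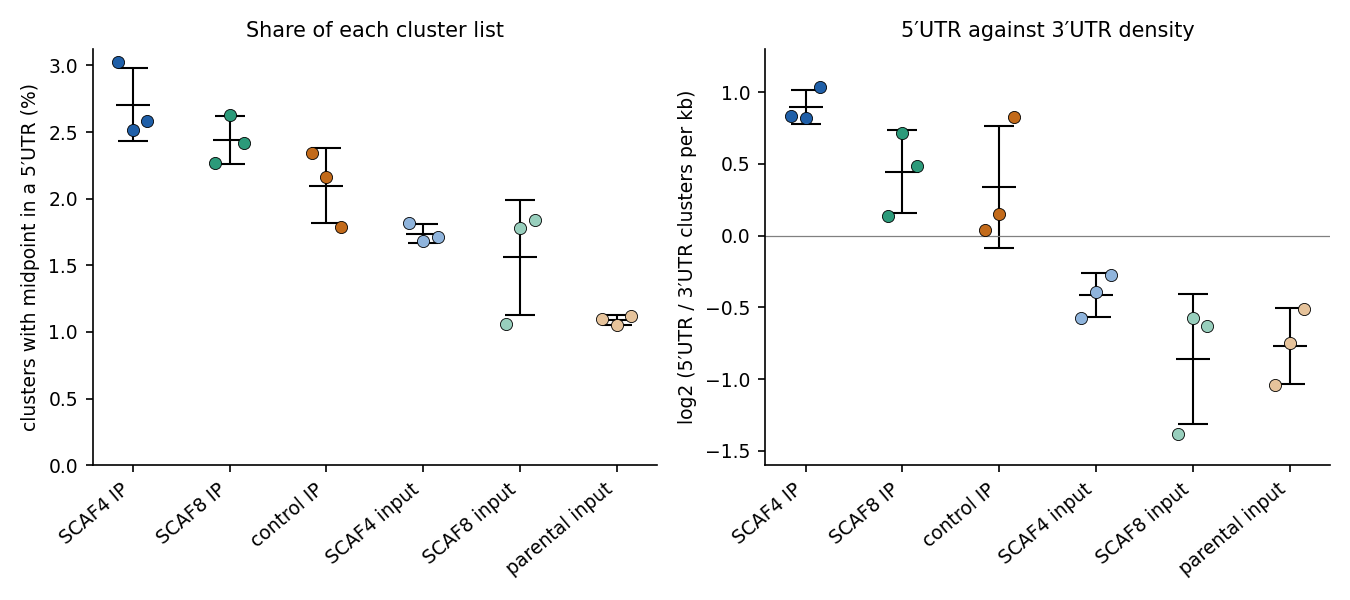
Share of each list's clusters with the midpoint in a 5′ UTR (left, percent) and the log2 ratio of clusters per kb of 5′ UTR to clusters per kb of 3′ UTR (right), for the 6 groups. Points are the 3 lists of a group and bars the mean ± SD. The 6 SCAF IP lists lie above the 6 inputs of their lines in both panels, and control IP lies above parental input.

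Per kb of each element, the gain of 5′ UTRs passed the test against 3′ UTRs and did not pass it against coding sequence. The annotation held 4.66 Mb of 5′ UTR, 28.7 Mb of coding sequence and 35.03 Mb of 3′ UTR. The log2 ratio of 5′ UTR to 3′ UTR clusters per kb was 0.84, 0.82 and 1.03 in SCAF4 IP and 0.14, 0.72 and 0.49 in SCAF8 IP. In the inputs of these lines it ran from -1.38 to -0.27, below every IP list (difference 1.31, exact permutation p = 0.00216, adjusted p = 0.0048, n = 6 each). Control IP was at 0.04, 0.15 and 0.82 and parental input at -1.04, -0.75 and -0.51, so that this ratio was also higher in control IP, by 1.11.

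The ratio of 5′ UTR to coding sequence differed less. On the log2 scale it was -1.06 ± 0.11 in SCAF IP and -1.15 ± 0.12 in own input (SD, n = 6 each), and the groups overlapped (exact permutation p = 0.201, adjusted p = 0.316). Per kb, 5′ UTRs thus held fewer clusters than coding sequence in every list of these groups.

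The sequence around 5′ UTR midpoints was richer in CGG or CGA in SCAF IP than in own input, and control IP was as rich as SCAF IP. Within 100 nt around the midpoint, SCAF4 IP lists had 2.96, 3.27 and 3.21 matches per window, and SCAF8 IP lists 2.76, 3.13 and 3.19. Inputs of these lines had 2.30, 2.42 and 2.41 (SCAF4) and 1.94, 2.72 and 2.55 (SCAF8). The lowest IP list was above the highest input (means 3.09 and 2.39, exact permutation p = 0.00216, adjusted p = 0.0048, n = 6 each). In the canonical isoform the difference was 0.40, and it no longer passed the test (exact permutation, adjusted p = 0.0556).

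These levels need reference values. Control IP had 2.96, 3.48 and 2.93 matches per window, a mean of 3.12 that did not differ from SCAF IP beyond the spread (exact permutation p = 0.81, n = 6 and 3). Windows of 100 nt laid along all annotated 5′ UTRs had 3.19 matches on average, and 76.5% of these 46483 windows held a match. SCAF IP clusters were therefore close to the average of all 5′ UTR windows, and the inputs of the SCAF lines were below it. Parental input had 2.33, 2.38 and 3.23, of which the last was above it. The genes detected also differed: 5′ UTR windows averaged 3.03 matches in genes with a cluster in at least 2 of 6 SCAF IP lists. They averaged 2.51 in genes with a cluster in at least 2 of 9 inputs. Whether the clusters differ beyond their genes was not tested.

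The number of matches in 5′ UTR windows minus that in coding windows of the same list was 1.29 ± 0.15 in SCAF IP and 0.67 ± 0.156 in own input (SD, n = 6 each, exact permutation p = 0.00216, adjusted p = 0.0048). In the canonical isoform the difference between these was 0.29 (exact permutation, adjusted p = 0.0556), against 0.62 here. In coding sequence alone the means were 1.79 and 1.72. Control IP had a difference of 1.16 between its 5′ UTR and coding windows, and its range of 0.93 to 1.41 overlapped that of SCAF IP.

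GC content followed the same order. The median GC of the windows was 57, 58 and 58% in SCAF4 IP and 55, 58 and 58% in SCAF8 IP. It was 54, 55 and 54.5% in SCAF4 input and 48, 56 and 53.5% in SCAF8 input (difference of means 3.83 points, exact permutation p = 0.0065, adjusted p = 0.0119, n = 6 each). Control IP was at 56, 58 and 56%, and all 5′ UTR windows at 60%. The 5′ UTR windows of genes in at least 2 of 6 SCAF IP lists were at 58%. Those of genes in at least 2 of 9 inputs were at 54%. SCAF8 input replicate 1 stood apart from the others: it also had the most TTTT (1.61 per window, against 0.73 to 0.90 in the other 5 inputs of these lines). Without it the motif difference was 0.60 and the GC difference 2.73 points. In the canonical isoform the GC difference was 2.5 points and missed the threshold (exact permutation, adjusted p = 0.0556).

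For 2 other motifs described in the study, SCAF IP and own input did not differ beyond the spread when all clusters were used. CAG with a C or G on both sides occurred 0.73 times per window in SCAF IP and 0.67 in own input (exact permutation p = 0.374, n = 6 each). Among clusters with scores at or above their list's median this difference was 0.086 and passed the test (exact permutation, adjusted p = 0.0298). CTCC or CACC occurred 0.97 and 0.95 times (exact permutation p = 0.24). All 5′ UTR windows had 1.07 and 1.39, and 59.7% and 65.96% of them held a match, so that windows at clusters had fewer of both motifs than 5′ UTRs at large.

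The share of 5′ UTR clusters that crossed from the exon into an intron of the isoform was higher in SCAF IP than in own input. Control IP was lower than SCAF IP with clusters as deposited, and overlapped it with clusters of a fixed width. SCAF4 IP lists had 30.3, 37.0 and 34.8%, and SCAF8 IP lists 28.0, 31.2 and 33.1%. Inputs of these lines had 19.7, 17.4 and 26.8% (SCAF4) and 21.6, 20.1 and 18.7% (SCAF8). All IP lists were above all inputs (means 32.4% ± 3.26 and 20.7% ± 3.30, SD, n = 6 each, exact permutation p = 0.00216, adjusted p = 0.0048).

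Control IP had 26.1, 10.0 and 13.8%, on 226, 50 and 29 clusters, all below the lowest SCAF IP list. The difference of 15.8 points had the smallest p that 6 and 3 lists allow (exact permutation p = 0.0119), and an adjusted p of 0.131 over the 11 measures compared with control IP. SCAF IP gained 11.7 points over own input, and control IP lost 2.03 points on average against parental input (19.7, 18.8 and 17.5%). Control IP replicate 1, the list with 226 clusters, gained 6.40 points, within the 6.32 to 19.6 points of the SCAF pairs, while replicates 2 and 3, with 50 and 29 clusters, differed from their inputs by -8.75 and -3.75 points. The difference of these gains had an exact permutation p of 0.0238 and an adjusted p of 0.262 over the 11 measures. A sequence that is intronic in the chosen isoform can be exonic in another, which was not tested.

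Crossing was counted more often at the 5′ splice site than at the 3′ splice site. A first exon has no 3′ splice site, and 71.3% of SCAF IP and 68.3% of own input clusters lay in first exons. The shares below are over all 5′ UTR clusters, so they do not show a preference for either site. In SCAF IP, 27.1% ± 3.21 of 5′ UTR clusters crossed the 3′ end of their exon and 8.70% ± 1.41 its 5′ end, against 15.1% ± 2.69 and 6.71% ± 1.91 in own input (SD, n = 6 each). At 20 nt into the intron, 13.4% of SCAF IP clusters with a downstream intron were still present, with lists between 9.58 and 16.3%. Inputs of these lines were between 3.41 and 7.10% at this position, and control IP between 3.70 and 6.07%, whereas parental input ran from 3.13 to 11.9%, so that its highest list was within the SCAF IP range. By 50 nt the means had dropped to 4.34% in SCAF IP and 1.49% in own input. Clusters were also somewhat longer in SCAF IP (medians of 148 to 164 nt) than in own input (134.5 to 157 nt) or control IP (127 to 155.5 nt). With every cluster replaced by the 100 nt around its midpoint, the shares were 16.5% and 11.1% (exact permutation p = 0.0043, adjusted p = 0.0095, n = 6 each). At this fixed width control IP ran from 6.0 to 17.2% and overlapped SCAF IP (12.4 to 19.6%). The difference from control IP was 4.66 points (exact permutation p = 0.131, n = 6 and 3). Control IP, with a mean of 11.9%, was then 0.88 points above parental input (exact permutation p = 0.9, smallest possible 0.1, n = 3 each), and the gains over input did not differ beyond the spread of pairs (exact permutation p = 0.321, n = 6 and 3).

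**Figure D2:**
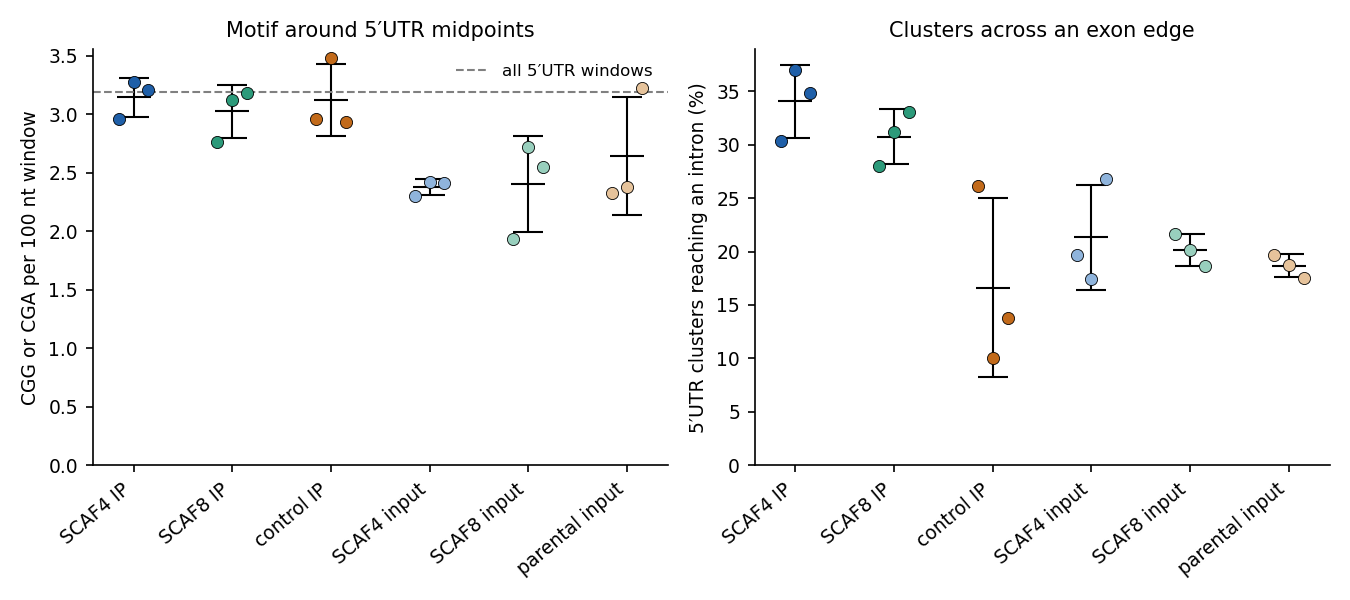
CGG or CGA per 100 nt window around 5′ UTR midpoints (left) and the share of 5′ UTR clusters that reached an intron (right, percent). Points are the 3 lists of each group, bars the mean ± SD, and the dashed line the 3.19 matches of windows along all 5′ UTRs. Control IP lies with SCAF IP for the motif and below it for the introns, with clusters as deposited.

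**Figure D3:**
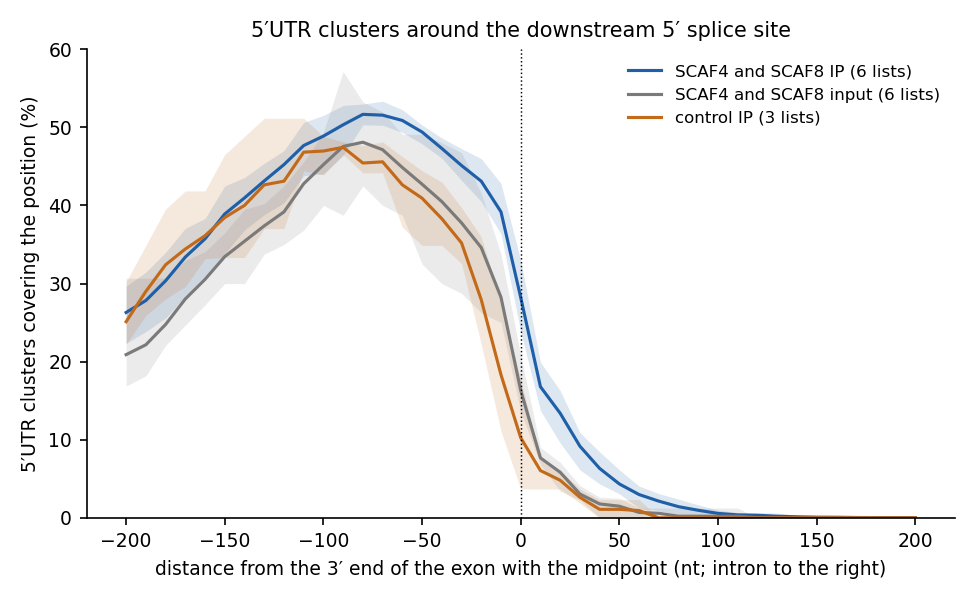
Share of 5′ UTR clusters (percent) that covered each position around the 3′ end of the exon holding the midpoint, for clusters with a downstream intron. Lines are means over lists and bands run from the lowest to the highest list. At 20 nt into the intron all SCAF IP lists, at 9.58% or more, lie above the inputs of their own lines and the control IP lists, at 7.10% or less.

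These 5 measures whose groups did not overlap, and GC, rest on small numbers of lists. With the replicate number as a block, each SCAF IP list was paired with its own input, and all 6 pairs moved the same way in each of the 6 measures. Each then had the smallest p of exact sign flips over 6 pairs, 0.03125, with an adjusted p of 0.0573, so none passed 0.05. The study calls the replicates biological without saying whether they were separate cultures, and p-values measure the spread between lists, which may be technical.

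Along the 5′ UTR, clusters were most frequent, relative to the sequence available, at 100 to 200 nt from the transcript start. This bin held 16.5% of the 5′ UTR length of the 1633 genes and 24.8% of SCAF IP clusters, a ratio of 1.499 that ran from 1.301 to 1.65 over the 6 lists. Inputs of these lines had a mean ratio of 1.25 (0.98 to 1.42) and control IP 1.32 (1.25 to 1.37). The first 100 nt had a ratio of 1.01 in SCAF IP, and the stretch beyond 1000 nt 0.49. Placement by midpoint limits the first bin. SCAF IP lists had median cluster lengths of 148 to 164 nt, and a cluster that begins at the transcript start has its midpoint further inside. In SCAF IP, 9.74% of 5′ UTR clusters covered the start itself. How far this shaped the bins was not tested. The median distance from the transcript start was 221 to 292.5 nt in SCAF IP and 224 to 337 nt in own input (exact permutation p = 0.40, n = 6 each). Between 69.1 and 74.4% of SCAF IP clusters lay in the first exon.

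The start codon was covered by 31.5% ± 1.76 of 5′ UTR clusters in SCAF IP and 30.3% ± 2.58 in own input (SD, exact permutation p = 0.359, n = 6 each). Control IP had 33.8% ± 2.55 (n = 3). Among clusters with scores at or above their list's median, the start codon share was 8.20 points higher in SCAF IP and passed the test (exact permutation p = 0.0108, adjusted p = 0.017, n = 6 each), and with other settings it was between -0.58 and 2.04 points.

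Clusters of all lists were merged on each strand where they overlapped by at least 1 nt, which gave 82455 regions, of which 1981 held a 5′ UTR cluster. A region counts as being in a list when any cluster of that list falls in it, also one whose midpoint is outside the 5′ UTR. A region counted as supported by SCAF IP alone when it was in at least 2 of 3 SCAF4 or 2 of 3 SCAF8 lists and in no input or control IP list. This held for 617 5′ UTR regions (31.1%) in 577 genes, against 21% of all 82455 regions. In 493 of the 617 the required 2 lists also had the midpoint in the 5′ UTR. Without replicate 2 or 3 the count was 293 (18.7%) or 282 (16.7%), against 11.1% and 9.21% of all regions. Coding regions stood at 32.1% and 3′ UTR regions at 14.1%, so that 5′ UTRs were like coding sequence in this respect. At least 1 input list held 25.3% of the 5′ UTR regions, against 32.6% of all regions, and at least 1 control IP list held 14.9%, against 11.3%.

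All 3 SCAF4 and all 3 SCAF8 lists shared 279 of the 1981 5′ UTR regions (14.1%), against 7.38% of all regions. Coding regions stood at 11.8% and 3′ UTR regions at 9.68%. In 154 of the 279 every list had the midpoint in the 5′ UTR. Of the 279, 32 (1.62% of the 1981) were in no input or control IP list, against 0.682% of all regions. Of the 1981 regions, 27 were in all 3 SCAF4 lists and no SCAF8 list, and 3 in all 3 SCAF8 lists and no SCAF4 list. SCAF4 lists were also larger, with a mean of 940 5′ UTR clusters against 685 in SCAF8 lists. Regions in a single SCAF IP list were the most numerous, with 457 from SCAF4 and 209 from SCAF8. For these counts no share over all regions is given, so they describe the 5′ UTR regions only. Overlap of a SCAF4 list with another SCAF4 list ran from 38.9 to 86.6% of its 5′ UTR clusters, and with a SCAF8 list from 34.3 to 74.7%. A SCAF8 list had 45.5 to 90.9% of its 5′ UTR clusters in common with a SCAF4 list. Of the control IP clusters, 79.2 to 100% overlapped a given SCAF4 or SCAF8 list, whereas 2.92 to 39.3% of the SCAF IP clusters overlapped a given control IP list.

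**Figure D4:**
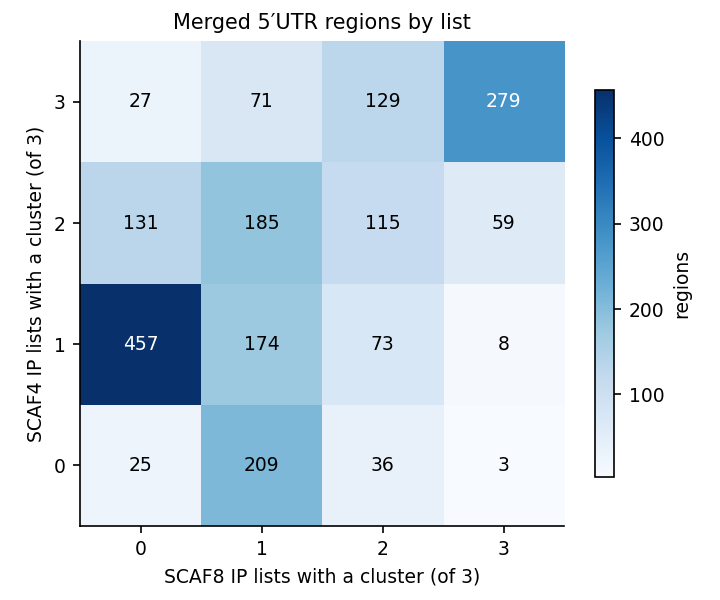
Number of merged 5′ UTR regions by how many of the 3 SCAF4 IP lists (vertical) and of the 3 SCAF8 IP lists (horizontal) held them. The corner of all 6 lists holds 279 regions, the corner of 3 SCAF4 and 0 SCAF8 lists 27, and that of 0 SCAF4 and 3 SCAF8 lists 3.

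By gene, 701 genes had a 5′ UTR cluster in at least 2 SCAF4 IP lists and 495 in at least 2 SCAF8 IP lists. The 390 genes in common were 55.6% of the SCAF4 genes and 78.8% of the SCAF8 genes. Over both proteins, 976 genes (5.89% of those with a 5′ UTR) had one in at least 2 of the 6 SCAF IP lists. Their 5′ UTRs were long, with a median of 387.5 nt against 180 nt for all genes, and 54.0% had an intron within the 5′ UTR, against 39.9%. Genes with a 5′ UTR cluster in at least 2 of 9 inputs had a median of 446 nt, so that length also went with being detected in input. A long 5′ UTR offers more sequence for a midpoint to fall in.

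Of the 577 genes with a region supported by SCAF IP alone, 519 (89.9%) also had a SCAF IP cluster in coding sequence, 313 (54.2%) in the 3′ UTR and 428 (74.2%) in an intron. In 26 genes the 5′ UTR was the only place with a SCAF IP cluster. No such shares are given for other genes, so these do not show a trait of the 577. With filters modelled on the study's steps, which need not give the study's own set (at least 2 lists, removal by overlap with more than 1 input, by density of input regions in the gene, and by overlap with control IP), 341 of 10295 SCAF4 consensus regions (3.31%) and 173 of 5360 SCAF8 consensus regions (3.23%) had the midpoint in a 5′ UTR. Of the 173 SCAF8 regions, 67.6% overlapped a SCAF4 consensus region, against 53.8% of the SCAF8 consensus regions elsewhere.

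Of the 32 regions in 6 of 6 SCAF IP lists and in no input or control IP list, the 12 with the highest mean score percentile were in 12 genes. KDM5A, a histone demethylase, had the highest mean score percentile (76.4, the percent of a list's clusters at or below its score): its region of 405 nt (chr12:389125-389529) had its most shared part 107 nt from the transcript start, and clusters with the midpoint in the 5′ UTR had scores at the 61.2 to 82.8 percentile of their lists. The region was in all 6 lists, of which SCAF4 IP replicate 2 had its midpoint outside the 5′ UTR. TRIM37, an E3 ubiquitin ligase, had a region across the start codon and into the first intron (chr17:59106400-59106682), 10 CGG or CGA matches in 100 nt, and a GC content of 71%. Its clusters were at score percentiles of 71.0, 62.7 and 73.6 in SCAF4 IP and 57.6, 65.3 and 77.3 in SCAF8 IP, with no list apart from the others.

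OGA, which removes O-linked N-acetylglucosamine from proteins, had a region of 551 nt (chr10:101817909-101818459) that reached from the transcript start over the start codon. Its highest cluster was at a score percentile of 99.1 in SCAF4 IP replicate 1 and 97.6 in SCAF8 IP replicate 1, and between 65.0 and 74.8 in the other 4 lists. KDM2A, another histone demethylase, had a region of 235 nt at the end of exon 1 (chr11:67119817-67120051) whose clusters ended at nearly the same base in 4 of 6 lists. Its scores varied among lists, from a percentile of 30.8 in SCAF8 IP replicate 3 to 95.8 in SCAF4 IP replicate 2. A cluster in every list can therefore carry a low score in some.

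The others included FRAS1, an extracellular matrix protein, the KRAB zinc finger gene ZNF224, the helicase DDX56, the methyltransferase METTL22, SCGB2B2, and the paralogs SRGAP2 and SRGAP2B. The isoform of DDX56 is annotated as a nonsense-mediated decay transcript, and in SCGB2B2 the 5′ UTR is 3561 nt long with an exon of another gene on the same strand at the region. The midpoint was in the 5′ UTR in 6 of 6 lists for FRAS1, METTL22 and SCGB2B2, as for TRIM37, OGA and KDM2A. It was there in 4 for ZNF224, in 3 for DDX56 and SRGAP2, and in 2 for SRGAP2B. Elsewhere in their 5′ UTRs, outside these regions, ZNF224, SRGAP2 and SRGAP2B had clusters in inputs, and SRGAP2 and SRGAP2B also in control IP. SRGAP2 and SRGAP2B are near-identical copies: their regions shared an unbroken run of 189 nt, so that reads cannot be assigned to either with certainty. Of the 12 regions, 8 reached an intron. Among all 5′ UTR regions in 6 of 6 SCAF IP lists 67.4% did, and among all 5′ UTR regions 46.7%.

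Regions with the most lists of 1 protein and none of the other were named by the same ranking. For SCAF4 IP these were HMGXB4, CTTN (cortactin, an actin-binding protein), MGAT4B (a glycosyltransferase) and ZNF43, each in 3 of 3 SCAF4 lists and in 0 of 3 SCAF8 lists. The midpoint was in the 5′ UTR in 1 of these lists for MGAT4B and in 2 for ZNF43. Their mean score percentiles ran from 73.8 to 85.0. For SCAF8 IP these included ZNF551 and ENSG00000290183, which were in 3 of 3 lists, and PGBD1 in 2 of 3, with no SCAF4 list. The regions of ZNF551 and ENSG00000290183 each have an exon of another gene on the same strand. The isoform of HMGXB4 is annotated as a nonsense-mediated decay transcript. As 1 list more or less would change this grouping, it describes the lists and was not tested.

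At the other end, 11 of the 1981 5′ UTR regions were in all 18 lists, control IP and input included. In 3 of the 11 every list had the midpoint in the 5′ UTR. The share over all merged regions is not given, so the count does not show whether 5′ UTRs differ in this respect. The 6 of them with the highest mean score percentile were in the histone genes H2BC12 and H3C15, TMPO (a nuclear lamina protein), the splicing factor gene SRSF1, the TFIID subunit gene TAF7 and HNRNPA0. H2BC12, SRSF1 and HNRNPA0 had the midpoint in the 5′ UTR in 2 input lists and in no IP list. All 6 covered the start codon, and their lengths ran from 400 to 2210 nt. Histone genes have near-identical copies, so their assignment is uncertain.

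Genes controlled by upstream reading frames were the best represented of 7 gene lists by the share of members in at least 2 SCAF IP lists. Of 14 such genes, 8 had a 5′ UTR cluster in at least 2 SCAF IP lists, beside 5.89% of all genes with a 5′ UTR. Of these 8, 6 had none in control IP or input, beside 604 of the 976 genes with a 5′ UTR cluster in at least 2 SCAF IP lists. The 5′ UTRs of the 14 ran from 117 to 1686 nt. All but those of EPRS1 and CEBPA were above the median of 180 nt for all genes, and length was not adjusted for. The list was described by its counts, and no test was made on it. ATF4, the transcription factor of the integrated stress response, had clusters in 3 of 3 SCAF4 and 3 of 3 SCAF8 lists and in none of the other 12 lists.

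In ATF4 the clusters of SCAF8 IP all lay at 1 place, with midpoints 601, 599 and 620 nt from the transcript start in replicates 1, 2 and 3. SCAF4 IP replicates 2 and 3 had a cluster there as well, at 669 and 620 nt, while replicate 1 had its cluster at 99 nt. SCAF4 IP also had clusters at 75, 351 and 370 nt, where SCAF8 IP had none. An ATG-initiated frame of 53 codons, found by reading the 5′ UTR sequence, ran from 482 to 644 nt and held 4 of the 9 SCAF IP midpoints, and a frame from 694 nt that runs past the main start codon held 0.

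MIEF1, which encodes a regulator of mitochondrial shape and whose upstream frame encodes the protein MIURF, had clusters in SCAF4 IP replicates 2 and 3 and in all 3 SCAF8 lists. The frame of 70 codons at 176 to 389 nt held 4 of the 5 midpoints. These clusters also lie in an exon annotated to MIURF on the same strand. SLC35A4, a nucleotide sugar transporter family gene, had clusters in all 6 SCAF IP lists, at 1563 to 1672 nt in 5 of them and at 1031 to 1044 nt in 4. Its longest frame, of 177 codons at 70 to 604 nt, held 0 of the 9 midpoints, and a frame of 37 codons at 1550 to 1664 nt held 4. Neither gene had a cluster in control IP or input.

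PPP1R15B, a regulatory subunit of the phosphatase that reverses phosphorylation of the initiation factor eIF2alpha, had clusters in all 6 SCAF IP lists but also in 5 inputs, so that it is not particular to the IP. AMD1, of polyamine synthesis, had clusters in 3 SCAF4 lists and 1 SCAF8 list. DDIT3 had 2 SCAF4 lists, PPP1R15A 1 list of each protein, EPRS1 2 SCAF4 lists and 1 input, and IBTK 1 SCAF4 list. ATF5, IFRD1, CEBPA, CEBPB and UCP2 had none in any list.

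**Figure D5:**
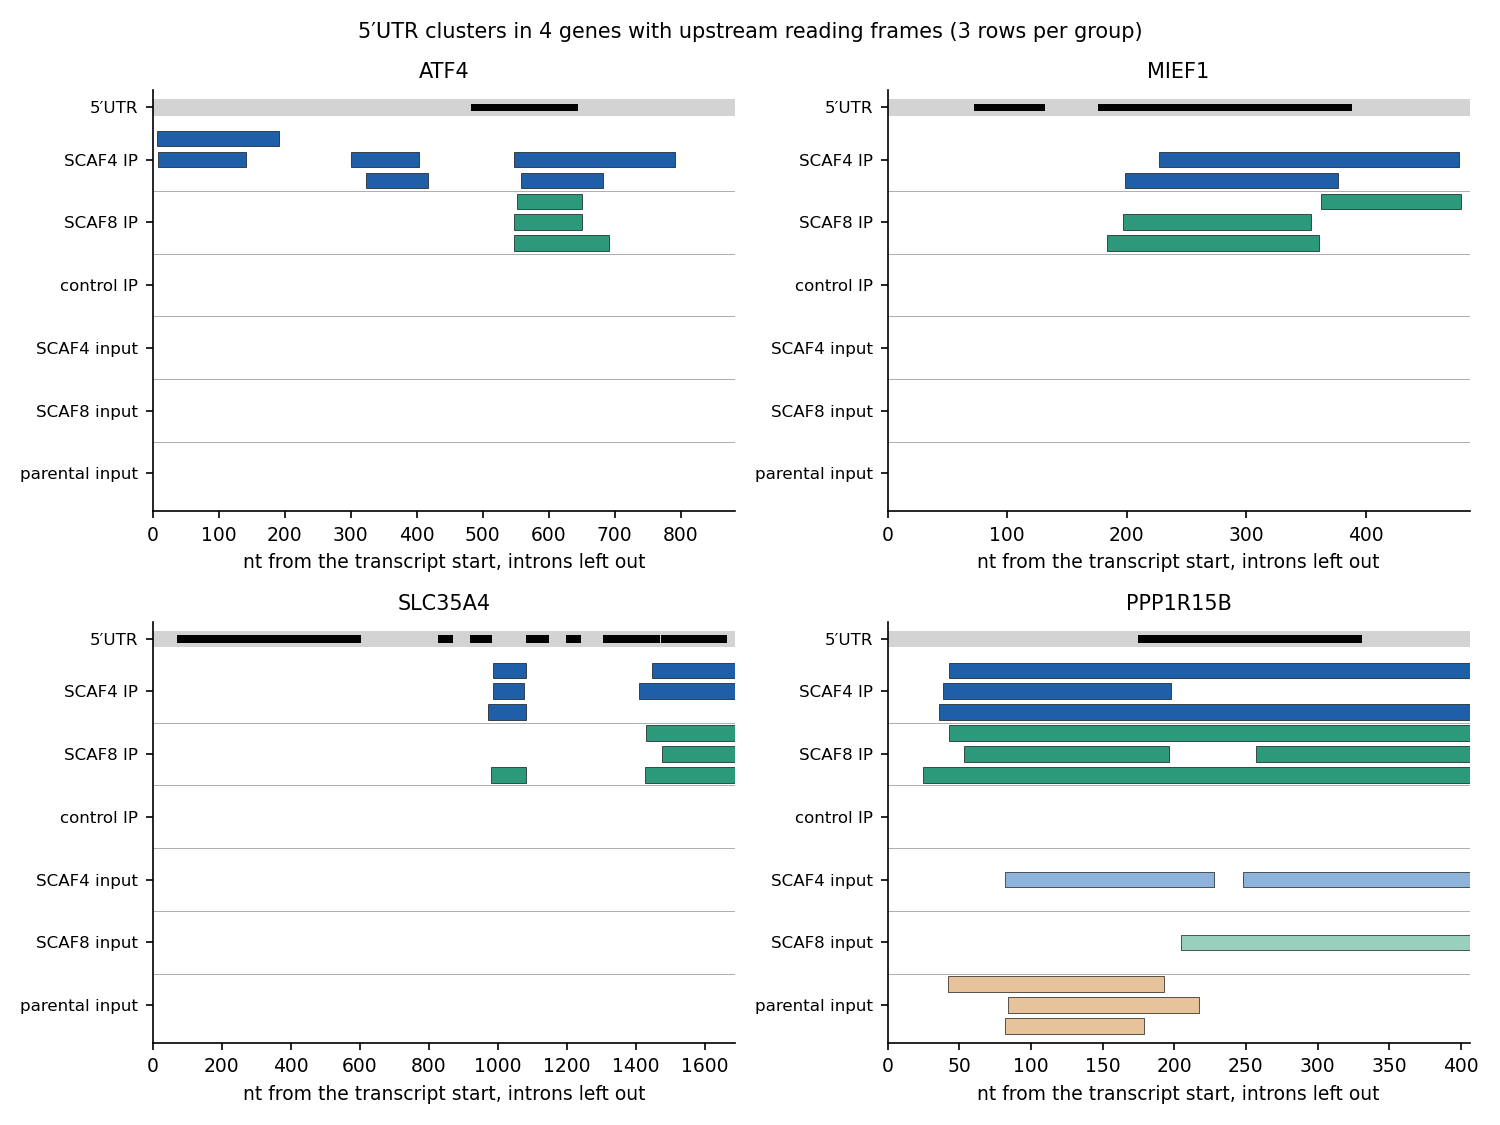
Clusters with the midpoint in the 5′ UTR of ATF4, MIEF1, SLC35A4 and PPP1R15B by list (rows, 3 per group, replicate 1 on top) against the distance from the transcript start in nt with introns left out. The grey bar is the 5′ UTR, at whose end clusters are cut off, and black bars are ATG-initiated frames of at least 10 codons with a stop in the 5′ UTR. Only PPP1R15B has clusters in inputs, and none of the 4 has one in control IP.

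Of 17 growth genes with an annotated 5′ UTR that is known as long or structured, 3 had clusters in at least 2 SCAF IP lists. Of all genes with a 5′ UTR, 5.89% did. CDK6, a cell cycle kinase, was in 3 SCAF4 and 2 SCAF8 lists and in no control IP or input list, with midpoints between 129 and 165 nt from the start. APAF1, the core of the apoptosome, was in 2 SCAF4 lists, 1 SCAF8 list and 1 input. NRAS had a midpoint in the 5′ UTR in 1 list of each protein, and a region at its start codon was in all 6, in control IP replicate 1 and in SCAF8 input replicates 2 and 3. BCL2 was in 1 SCAF4 list. The other 13, MYC, CCND1 and XIAP among them, had none.

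FTL, the ferritin light chain, was the only one of 5 iron-responsive genes with a cluster, in 1 SCAF4 list, 2 SCAF8 lists and 2 inputs. Of 7 genes with a CGG repeat in the 5′ UTR, ZNF713 had a cluster in 1 SCAF4 list. Of 8 mRNAs with a terminal oligopyrimidine tract, TPT1 had one in 2 SCAF8 lists. Of all genes with a 5′ UTR, 9.65% had one in at least 1 SCAF IP list and 5.89% in at least 2. Repeats and short 5′ UTRs are hard to map or to place, which was not tested.

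Among the 7 genes for proteins with a domain that binds the polymerase tail, 3 had a 5′ UTR cluster in at least 2 SCAF IP lists (5.89% of all genes) and 5 in at least 1 (9.65% of all genes), and none had one in control IP or input. PCF11, a termination factor, was in 2 SCAF4 lists and 1 SCAF8 list. SCAF4 was in 2 SCAF4 lists, and SCAF8 in 1 list of each protein. RPRD1B and CHERP were in 1 SCAF4 list each. None of the 9 genes with a 5′ UTR that the study names for early polyadenylation had a 5′ UTR cluster in any of the 18 lists, where 9.86% of all genes had one.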

How the data were processed

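The authors trimmed reads with Trim Galore and aligned them to GRCh38 with Bowtie2 2.2.9, removed duplicates, merged the fractions of a replicate and called clusters with PARalyzer from reads with T-to-C changes, so that a cluster needs several uridines that were crosslinked. The deposited lists give start, end, strand and an unnamed score per cluster, which was used only as a rank within its list. Read depth is not in the lists, so precision is given by cluster counts, and binomial intervals (95%, exact) cover counting error only. All cluster ends lay within the chromosome lengths of GRCh38.

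Clusters were placed in GENCODE 44 with Python 3.11.15, pandas 2.3.3 and pysam 0.24.0. The isoform of 2770 of 20033 protein-coding genes by the rule had no coding sequence and so no 5′ UTR. Lists were compared by two-sided exact permutation of list labels, with Benjamini-Hochberg adjustment within a contrast. An IP and its input come from the same extract, so that replicate numbers pair them. Over the 11 measures, deviations of the 6 SCAF pairs from their group means correlated with r from -0.07 to 0.90. Placement, merging and permutation were tested on simulated data (18 of 18 lists and 60 of 60 planted regions were recovered).

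Members and gene lists were chosen with earlier results of these data known. Named regions were the 12 with the most SCAF IP lists among those in no other list, 4 in SCAF4 only, 4 in SCAF8 only, 6 with the most inputs, and up to 4 genes per gene list in at least 2 lists, with ties broken by mean score rank; some of these regions are not reported here. Alternatives covered the isoform, the placement, the score, overlapping genes, the window, the denominator, single replicates and the replicate block. The contrasts with control IP beyond the share, the fixed 100 nt extent, the counts by 5′ UTR midpoint and the omission of SCAF8 input replicate 1 were added after the data were seen.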

Additional observations from a re-analysis of the deposited data

Results flagged for a closer look

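The motif of CAG with a C or G on both sides differed between IP and input in opposite directions in the SCAF4 and SCAF8 lines. In 5′ UTR windows of the SCAF4 line it was lower in IP than in the input of the same replicate in 3 of 3 pairs (mean difference -0.03 per window), and in the SCAF8 line it was higher in 3 of 3 pairs (0.14). The difference between the lines was -0.17 matches per window and was not tested. SCAF8 input replicates 1 and 3 had the lowest values of the inputs of these lines (0.49 and 0.51), and the 6 IP lists lay between 0.69 and 0.77.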

How the results depend on the processing

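All values are differences (SCAF IP minus the other group) unless named otherwise. The directions of the share, the 3′ UTR ratio, GC, the CGG or CGA counts and the intron share against own input held under every alternative run. With the replicate block the differences were 0.92 points (share), 1.31 (log2 5′ UTR to 3′ UTR), 3.83 points (GC), 0.70 (CGG or CGA), 0.62 (the same minus coding sequence) and 11.7 points (intron), each with an exact p of 0.03125 and an adjusted p of 0.0573. The block left the share against control IP at 0.47 points (exact p = 0.111), and changed no other call. Leaving out each replicate, or SCAF8 input replicate 1 alone, the share differed by 0.78 to 1.03 points, the 3′ UTR ratio by 1.16 to 1.36, GC by 2.73 to 4.50 points, CGG or CGA by 0.60 to 0.73, its excess over coding sequence by 0.58 to 0.65 and the intron share by 9.83 to 13.3 points. With 4 lists a side the smallest exact p is 0.0286, and no adjusted p was below 0.05. The share against control IP differed by 0.36 to 0.56 points (exact p from 0.0667 to 0.267).

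With the canonical isoform, GC differed by 2.5 points, CGG or CGA by 0.40 and its excess over coding sequence by 0.29 (exact permutation, adjusted p = 0.0556 each). The share against control IP missed the threshold with the longest protein-coding isoform (0.41 points), the canonical isoform (0.46), any overlap (0.78) and scores at or above the list median (0.35). The latter setting raised the CAG motif with C or G on both sides to a called difference (0.086) and the start codon share to a called difference of 8.20 points. The start codon share turned to -0.15 points with the longest protein-coding isoform, -0.50 with any overlap, -0.58 without clusters in exons of other genes and -0.059 with the fixed 100 nt extent. CTCC or CACC turned to -0.011 without clusters in exons of other genes and -0.019 in windows of 50 nt. None of these reversals passed the test. Regions supported by SCAF IP alone numbered 1097 with any overlap, 321 with scores at or above the list median and 282 to 590 without single replicates, and their share stayed above that of all regions each time. Causes were not tested.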

Other observations

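Zinc finger genes, most of which encode transcriptional repressors, were frequent among the genes with 5′ UTR clusters in input as well as in SCAF IP. Symbols that begin with ZNF or ZFP made up 85 of the 976 genes with a 5′ UTR cluster in at least 2 SCAF IP lists (8.71%), and 501 of all 16564 genes with a 5′ UTR (3.02%). They were 18 of the 210 genes with a 5′ UTR cluster in at least 2 of 9 inputs (8.57%) and 17 of the 220 in any control IP list (7.73%). The share was thus about the same in each kind of list. These genes share long stretches of sequence, and how their reads were assigned was not tested.

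The 25 5′ UTR regions in an input or control IP list and in no SCAF IP list had few matches to CGG or CGA and a low GC content. Their windows had 1.52 matches to CGG or CGA and a median GC of 45%, against 3.32 matches and 59% in the 617 regions supported by SCAF IP alone 3.31 and 59% in the 794 in SCAF IP alone with less support, and 2.90 and 56% in the 545 regions found in SCAF IP and in an input or control IP list. They lay a median of 621 nt from the transcript start, against 205, 193.5 and 220 nt in the same order, and 8% of them reached an intron, against 53.2, 34.005 and 59.8%. Their median length was 121 nt, against 210, 142 and 253 nt, and a longer region has more chance to reach an exon edge. No test was made, since the classes were defined by the lists.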
